A study of Danio rerio with 24 samples.

Results

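The change that sorted GFP+ cells of zebrafish larvae showed 3 h after neomycin, beyond that of sorted GFP- cells, was read as a difference of changes. For each gene, the change in GFP+ cells (3 h after neomycin minus mock) was reduced by the same change in GFP- cells. The comparison used 12 of the 24 libraries of the study, 3 in each of 4 groups, and 21002 genes with at least 1 FPKM (fragments mapped to a transcript, scaled by its length and by the total mapped in the library) in at least 3 of these libraries. Values were taken as log2(FPKM + 1), so a difference of 1 means that a well expressed gene changed by a factor of 2 more in GFP+ than in GFP- cells. A gene is called higher or lower here where this difference passed an adjusted p of 0.05 in the limma fit, with Benjamini-Hochberg adjustment over all genes tested. "Rose" and "fell" are used for a change within 1 population that passed the same threshold.

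All libraries came from larvae of the line Tg(sqET20), aged 5 days. This is an enhancer trap line, in which GFP is driven by an enhancer near the insertion site, and the labels do not say which cell types the GFP+ gate holds. Neomycin larvae received 300 uM of the drug for 30 min and recovered for 3 h, and mock larvae received no drug and were sampled at 1 h. For each library 200 larvae were pooled and dissociated with trypsin, living GFP+ or GFP- cells were sorted, and RNA of about 30000 cells was extracted. The mock libraries carry the experiment date Mar2012 and the 3 h libraries Apr2012. Drug, hour and date cannot be told apart within a population. A date effect of equal size in both populations on the log2(FPKM + 1) scale cancels in the difference. One that differs between them cannot be told apart from the response. An equal fold change cancels only in part for a gene near or under 1 FPKM in 1 population, since 1 is added to each value. The difference is then mostly the change of the other population. The labels do not say that replicates were separate clutches or sorts, so p-values measure the spread between these libraries, which may be technical.

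Fish sense water flow with the neuromasts of the lateral line, small organs in the skin in which mechanosensory hair cells are surrounded by supporting and mantle cells. Aminoglycoside antibiotics such as neomycin enter hair cells through their transduction channels and kill them, and supporting cells then divide and differentiate into new hair cells. Stress chaperones refold damaged proteins, ribosome biogenesis factors process ribosomal RNA in the nucleolus, and Notch, Fgf and Wnt signals are known to regulate supporting cell proliferation in this organ.

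Relative depth, read from the smallest values, ran from 0.727 to 1.27 of the median library. It was 0.871 to 1.21 in GFP+ mock and 0.727 to 0.835 in GFP+ 3 h libraries, against 1 to 1.27 and 0.801 to 1.13 in GFP- cells. Of a library's summed FPKM, 36.1% to 44.4% fell on its top 10 loci. This share was 39.5% to 44.4% in GFP+ mock and 36.1% to 39% in GFP+ 3 h libraries, against 37% to 43.6% and 36.9% to 40.4% in GFP- cells. The part of these shifts in the called differences was not tested. Markers of lateral line and supporting cells summed to 11300 to 12700 FPKM in GFP+ mock and 6190 to 6770 in GFP+ 3 h libraries, against 712 to 760 and 647 to 716 in GFP- cells. Hair cell markers summed to 4390 to 5900 and 2010 to 3170 FPKM in GFP+ cells, against 383 to 577 and 248 to 348 in GFP- cells. The GFP+ cells thus carried the lateral line markers and also high levels of epidermal markers, with 18900 to 35400 and 21700 to 26400 FPKM against 2080 to 3700 and 2340 to 3450. Each sum follows its most abundant members, such as krt15 in the lateral line list. In GFP+ cells 10 of the 39 tested lateral line and supporting cell markers fell and 3 rose, with a median change of -0.14. Of 29 tested hair cell markers 5 fell and 1 rose, with a median change of -0.18. Over all genes 8.46% fell and 20.8% rose in GFP+ cells. After the median-of-ratios scaling used below, 15 lateral line markers fell and 2 rose, and 7 hair cell markers fell and 1 rose. With that scaling 14.3% of all genes fell and 13.5% rose. In bulk libraries fewer cells of a type and less RNA per cell cannot be told apart. An estimated GFP- share of the GFP+ libraries, from markers of blood, neurons, retina and lens, was 3.39% to 3.88% in mock and 4.27% to 7.09% at 3 h, highest in GFP+ 3 h replicate 1. No pair of libraries held identical values.

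At 3 h, 1363 genes (6.49%) differed between the populations in their change, 1184 higher (5.64%) and 179 lower (0.852%). The libraries separated completely for 1306 of the 1363, that is, every one of the 9 pairs of a 3 h and a mock library in GFP+ cells changed more, or less, than every pair in GFP- cells. Over all genes tested, the libraries separated in this way for 11.1% upward and 2.28% downward. Separation is read from the same libraries as the call, so it is no independent support for it. The excess of higher calls depended on scaling. The median difference over all genes was 0.13 as deposited and -0.016 after median-of-ratios scaling, in which the median change of GFP+ cells went from 0.12 to 0. After that scaling 781 genes (3.72%) were called, 433 higher (2.06%) and 348 lower (1.66%), so that higher calls made up 55.4% rather than 86.9% of all calls. Under both scalings, 433 genes were higher (2.06%) and 175 were lower (0.833%), in all 608. Of the 1363 called genes, 198 had no symbol, 51 a clone-like symbol and 2 a small-RNA symbol, and these are not named below. The direction of a gene below is given as deposited, and the text says where its call was lost after scaling.

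The number of calls also rested on single libraries. Without GFP- 3 h replicate 3 the 1363 calls became 777, and without GFP- mock replicate 3, GFP- 3 h replicate 1 or GFP+ 3 h replicate 1 they became 832, 843 and 885. The 608 genes called under both scalings became at least 306 with 1 library left out, the lowest count again without GFP- 3 h replicate 3.

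**Figure D1:**
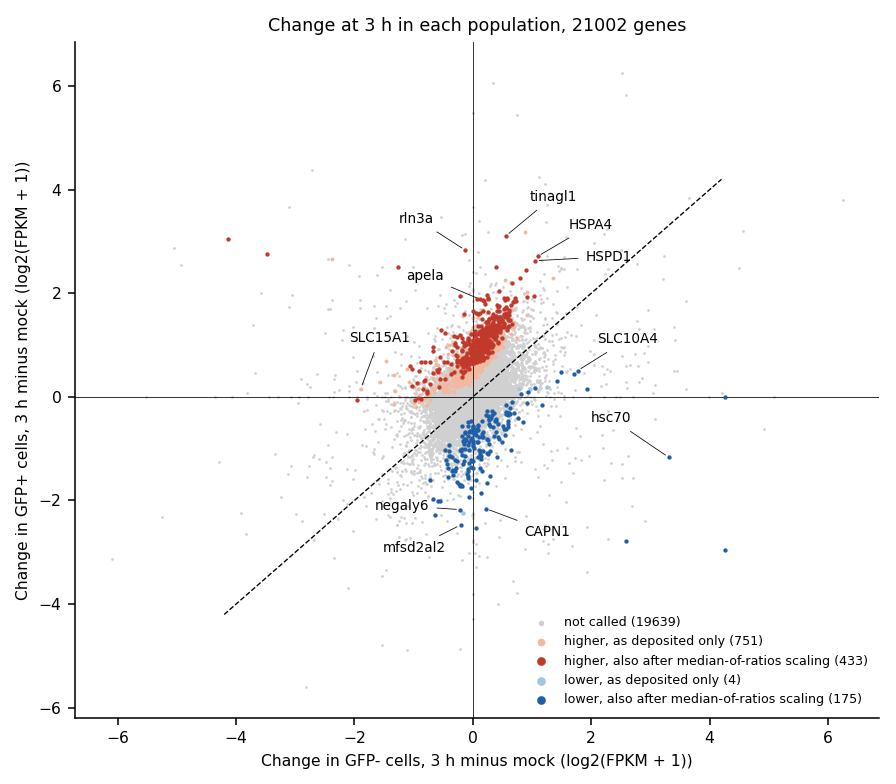
Change at 3 h in GFP- cells (horizontal axis) and in GFP+ cells (vertical axis) for all 21002 genes, each as the mean of 3 libraries at 3 h minus the mean of 3 mock libraries on the log2(FPKM + 1) scale. The dashed line marks equal change; 433 genes above it and 175 below it were called under both scalings, and hsc70 lies farthest below among the labelled genes.

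Most genes with a called difference were called in GFP+ cells and not in GFP- cells. The changes within the 2 populations are the terms of the difference itself, so these calls are no independent support for it. Of the 1184 higher genes, 985 (83.2%) rose in GFP+ cells and were not called in GFP- cells, 98 rose in both populations, 60 fell in GFP- cells without a GFP+ call, and 8 rose in GFP+ and fell in GFP- cells. Of the 179 lower genes, 144 (80.4%) fell in GFP+ cells only by call, 21 rose in GFP- cells only by call, and 2 fell in GFP+ and rose in GFP- cells. These counts stand against 4373 genes that rose (20.8%) and 1776 that fell (8.46%) in GFP+ cells over the whole table (29.3% in all), and 512 that rose (2.44%) and 476 that fell (2.27%) in GFP- cells (4.7% in all). After median-of-ratios scaling, 13.5% of genes rose and 14.3% fell in GFP+ cells (27.7% in all), and 2.56% rose and 1.79% fell in GFP- cells (4.34% in all). With that scaling, 351 of the 985 and 143 of the 144 kept their call in the difference. For 24 of the 1184 higher and 33 of the 179 lower genes the GFP- means were under 1 FPKM in mock and at 3 h. Their differences rest mostly on the GFP+ change.

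Within each date the same genes can be read as GFP+ against GFP- levels. In mock libraries 947 of the 1184 higher genes were lower in GFP+ than in GFP- cells (49.2% of all genes were) and 92 were higher (22.2% of all genes), by the limma test at an adjusted p of 0.05. At 3 h, 367 of the 1184 were lower (41% of all genes) and 339 higher (24.5%) in GFP+ cells. As deposited, the higher genes therefore mostly started below the GFP- level and lay on either side of it 3 h after neomycin. These levels were not counted after median-of-ratios scaling, which moves the populations against each other. It divided GFP+ mock libraries by 0.841 to 0.883 and GFP- mock libraries by 1.11 to 1.16. At 3 h the factors were 0.973 to 0.994 in GFP+ and 1.12 to 1.15 in GFP- cells. Of the 179 lower genes, 112 were higher and 35 lower in GFP+ than in GFP- mock cells. At 3 h 57 of the 179 were higher and 77 lower in GFP+ cells. These level differences and the difference of changes use the same libraries, so they are no independent support for each other.

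**Figure D2:**
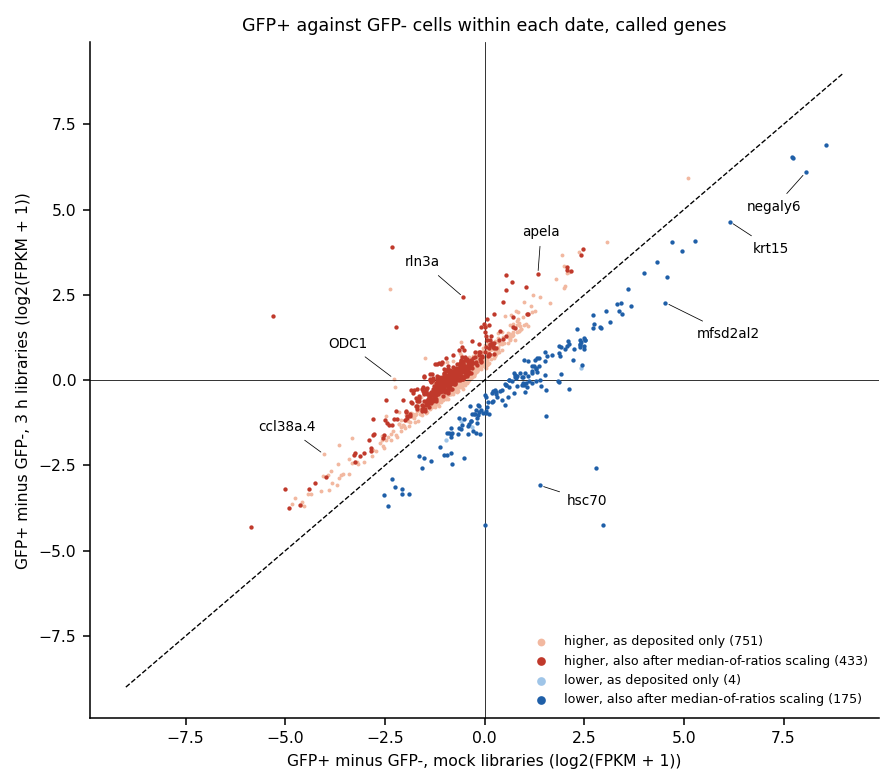
GFP+ minus GFP- level in mock libraries (horizontal axis, date Mar2012) and in 3 h libraries (vertical axis, date Apr2012) for the called genes, as means of 3 libraries on the log2(FPKM + 1) scale. Points above the dashed line of equal difference are higher genes and points below it lower genes. Levels are as deposited, and most higher genes lie left of 0 on the mock axis.

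Secreted and matrix proteins were among the largest higher differences. rln3a (ENSDARG00000070780), a relaxin family peptide, stood at 0.0863, 0 and 0.0697 FPKM in GFP+ mock libraries and 5.71, 6.67 and 7.17 FPKM at 3 h, against 0.471, 0.0848 and 1.19 and then 0.105, 0.149 and 1.11 FPKM in GFP- cells. All 3 GFP+ 3 h libraries lay above the other 9. Its difference was 2.96 ± 0.55 (SE, adjusted p = 0.00392, limma), with a GFP+ mock level near 0, so that the pseudocount limits the size of the change. tinagl1 (ENSDARG00000061231), a secreted protein of the extracellular matrix, went from 6.69, 4.002 and 4.78 FPKM to 99.0, 30.7 and 43.9 FPKM in GFP+ cells. Its GFP- values, 4.49, 3.05 and 2.36 FPKM in mock and 6.05, 4.54 and 5.11 FPKM at 3 h, did not pass the test, and the difference was 2.55 ± 0.57 (adjusted p = 0.0119, limma). The 3 GFP+ 3 h libraries lay above the other 9, with replicate 1 the highest.

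apela (ENSDARG00000094729), a peptide ligand of the apelin receptor, went from 3.37, 4.73 and 3.70 FPKM to 17.1, 14.4 and 20.2 FPKM in GFP+ cells. In GFP- cells its values of 1.52, 0.604 and 0.803 FPKM in mock and 1.48, 1.35 and 0.607 FPKM at 3 h overlapped, and the difference was 1.76 ± 0.28 (adjusted p = 0.0011, limma). rln3a, tinagl1 and apela kept their call after scaling.

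**Figure D3:**
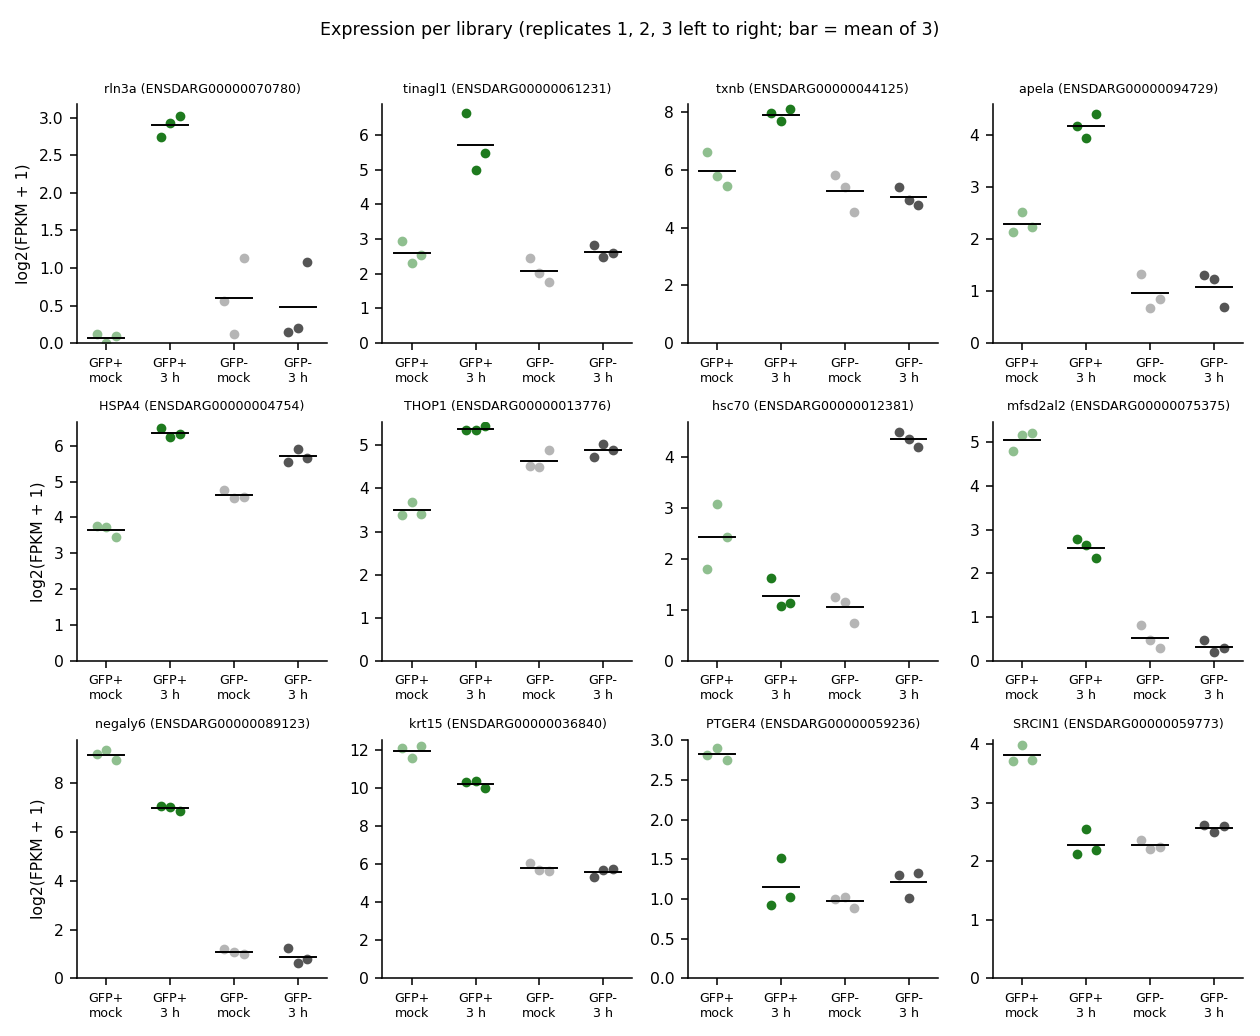
log2(FPKM + 1) of 12 genes in each of the 12 libraries, with replicates 1 to 3 from left to right in each group and a bar at the mean of 3. In the first 6 panels (rln3a to THOP1) the GFP+ 3 h libraries lie above the GFP+ mock libraries, in the other 6 below them, and hsc70 is the panel in which the GFP- 3 h libraries lie above all others.

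Among enzymes and membrane proteins, txnb (ENSDARG00000044125), a thioredoxin that reduces protein disulfides, went from 97.9, 54.7 and 42.5 to 247, 205 and 271 FPKM in GFP+ cells, while its GFP- values of 56.0, 41.8 and 22.0 in mock and 41.2, 29.7 and 26.7 at 3 h overlapped. The difference was 2.17 ± 0.46 (adjusted p = 0.00845, limma). THOP1 (ENSDARG00000013776), a peptidase of short peptides, was the most even of this group, with 9.42, 11.8 and 9.68 FPKM and then 39.8, 40.2 and 42.4 FPKM in GFP+ cells. In GFP- cells it stood at 22.1, 21.6 and 28.7 FPKM and 25.5, 31.8 and 28.8 FPKM, and its difference was 1.64 ± 0.19 (adjusted p = 0.000215, limma). PTPRZ1 (ENSDARG00000051814), a receptor-type tyrosine phosphatase, had a difference of 1.73 ± 0.28 (adjusted p = 0.00142, limma). Its GFP+ libraries went from 15.8, 24.8 and 27.3 FPKM to 60.8, 68.9 and 76.9 FPKM and those of GFP- cells did not pass the test. These 3 genes kept their call after scaling. Symbols in capitals are those of the mammalian ortholog, as the table of gene names gives them, and several zebrafish genes can share one.

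Chaperones formed the next group. HSPA4 (ENSDARG00000004754), an Hsp110-type exchange factor of Hsp70, rose in both populations. It went from 12.4, 12.4 and 9.90 to 90.2, 74.9 and 78.8 FPKM in GFP+ cells and from 26.02, 22.3 and 22.6 to 46.0, 59.6 and 49.8 FPKM in GFP- cells, with a difference of 1.62 ± 0.20 (adjusted p = 0.000293, limma). HSPD1 (ENSDARG00000056160), the mitochondrial chaperonin Hsp60, went from 18.2, 23.0 and 17.4 to 137, 106 and 134 FPKM in GFP+ cells and from 44.4, 38.6 and 44.7 to 82.8, 96.5 and 89.0 FPKM in GFP- cells. For both genes GFP+ cells started below and ended above the GFP- level, with no overlap between groups. HSPD1 had a difference of 1.57 ± 0.23 (adjusted p = 0.000663, limma), and its partner HSPE1 (ENSDARG00000056167), mitochondrial Hsp10, one of 1.14 ± 0.22 (adjusted p = 0.00529, limma).

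Of the 30 tested members of the heat shock list, 7 were higher (23.3%, against 5.64% of all genes) and none was lower. Their median difference was 0.30, against 0.13 over all genes. In GFP+ cells 16 of the 30 rose (20.8% of all genes did) and in GFP- cells 7 (2.44% of all genes). The 7 higher members included HSPD1, HSPE1 and HSPA9, which work in mitochondria, and the cytosolic co-chaperone STIP1 (ENSDARG00000004906), with a difference of 0.97 ± 0.19 (adjusted p = 0.00476, limma). A second HSPA4 gene (ENSDARG00000018989), the one on the list, had a difference of 0.62 ± 0.13. CHORDC1 (ENSDARG00000017067), an Hsp90 co-chaperone, dnaja1 (ENSDARG00000030972), an Hsp40, and HSPA9 (ENSDARG00000003035) had 0.52 ± 0.15, 0.75 ± 0.21 and 0.66 ± 0.15. The heat-induced Hsp70 genes hsp70l (ENSDARG00000055723) and hsp70.3 (ENSDARG00000021924) rose in GFP+ cells, by 1.92 ± 0.35 and 1.84 ± 0.37, but their differences of 0.67 ± 0.50 and 0.66 ± 0.53 were not called (adjusted p = 0.487 and 0.518, limma). After scaling 3 of the 7 kept their call (HSPD1, HSPE1 and STIP1), and with 1 library left out 5 to 8 were higher, or 2 to 4 under both scalings. CHORDC1 and dnaja1 lost their call without 11 and 8 of the 12 libraries in turn, and the other 5 were called without any 1 of them. One Hsp70 family gene listed as HSPA8 (ENSDARG00000037403) was outside the list, with 2.32, 1.28 and 2.78 FPKM in GFP+ mock and 7.24, 12.9 and 10.99 FPKM in GFP+ 3 h libraries and under 1 FPKM in all GFP- libraries. Its difference was 1.69 ± 0.42 (adjusted p = 0.0204, limma).

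Ribosome biogenesis factors held the largest share of higher calls among the 32 lists. Of 55 tested members 23 were higher (41.8%, against 5.64%) and none was lower, and their median difference was 0.72 as deposited and 0.53 after scaling. In GFP+ cells 53 of the 55 rose, with a median change of 1.00, and in GFP- cells 8 rose, with a median of 0.31. Of all genes 20.8% rose in GFP+ and 2.44% in GFP- cells. After scaling 8 of the 23 kept their call. Without GFP+ 3 h replicate 1, 12 members were higher, and 1 under both scalings, with a median of 0.62. The count also moved by over 1.5 times without GFP+ mock replicate 1 (13), GFP- 3 h replicate 1 (14) and replicate 3 (15), and GFP- mock replicate 3 (15).

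GAR1 (ENSDARG00000076526), a protein of the box H/ACA particles that modify ribosomal RNA, went from 20.2, 24.1 and 25.0 to 59.17, 49.3 and 58.3 FPKM in GFP+ cells. In GFP- cells it stood at 41.0, 47.3 and 49.7 FPKM in mock and 47.2, 51.9 and 49.9 FPKM at 3 h, which overlap, and its difference was 1.12 ± 0.19 (adjusted p = 0.00228, limma). BOP1 (ENSDARG00000063627), which processes the RNA of the large subunit, went from 7.29, 8.07 and 7.46 to 24.5, 23.4 and 23.8 FPKM in GFP+ and from 12.8, 11.1 and 12.6 to 17.6, 19.05 and 18.1 FPKM in GFP- cells. BOP1 rose in both populations and its difference was 0.99 ± 0.20 (adjusted p = 0.00746, limma). EBNA1BP2 (ENSDARG00000054980) and DCAF13 (ENSDARG00000002267), also nucleolar processing factors, had differences of 0.87 ± 0.16 and 0.86 ± 0.17. ABCF2 (ENSDARG00000038785), an ATPase of the ABC-F family that acts on ribosomes, went from 4.93, 6.18 and 6.98 to 43.3, 30.8 and 38.2 FPKM in GFP+ and from 15.97, 14.6 and 21.7 to 27.6, 37.5 and 33.9 FPKM in GFP- cells. Its difference was 1.56 ± 0.22 (adjusted p = 0.000598, limma), and all 5 genes named here kept their call after scaling.

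In the polyamine and arginine list 4 of 22 tested members were higher (18.2%, against 5.64%) and none was lower. ODC1 (ENSDARG00000007377), ornithine decarboxylase, the first enzyme of polyamine synthesis, went from 14.7, 8.03 and 9.39 to 239, 52.2 and 86.5 FPKM in GFP+ cells, with 64.3, 44.3 and 55.2 and then 118, 91.3 and 92.7 FPKM in GFP- cells. GFP+ cells were below the GFP- level in mock and overlapped it at 3 h, with replicate 1 far above the other two. Its difference of 2.31 ± 0.60 (adjusted p = 0.0257, limma) was not called after scaling (adjusted p = 0.0537) and lost its call with 6 of the 12 libraries left out in turn. SAT1 (ENSDARG00000095908), which acetylates polyamines, had a difference of 1.53 ± 0.39, and SRM (ENSDARG00000055760), spermidine synthase, one of 0.57 ± 0.16. EIF5A2 (ENSDARG00000056186), a translation factor that carries the polyamine-derived residue hypusine, was the 1 member called higher under both scalings. It went from 85.1, 84.3 and 79.4 to 212, 194 and 219 FPKM in GFP+ and from 181, 169 and 183 to 226, 249.8 and 240.2 FPKM in GFP- cells, a difference of 0.89 ± 0.14 (adjusted p = 0.00126, limma). With 1 library left out 1 to 4 members of the list were higher. EIF5A2 was called without any 1 of the 12 libraries, and SAT1 and SRM lost their call without 6 and 10 of them in turn.

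The largest difference in the whole set of named genes was downward. hsc70 (ENSDARG00000012381), whose symbol is that of a constitutive Hsp70 chaperone, stood at 2.50, 7.50 and 4.39 FPKM in GFP+ mock and 2.07, 1.11 and 1.19 FPKM in GFP+ 3 h libraries. In GFP- cells it went from 1.397, 1.22 and 0.679 FPKM to 21.8, 19.6 and 17.5 FPKM. The 3 GFP- 3 h libraries lay above the other 9, and the GFP+ groups did not overlap either. It rose by 3.31 ± 0.30 in GFP- cells and changed by -1.17 ± 0.30 in GFP+ cells, both past the threshold, with a difference of -4.48 ± 0.42 (adjusted p = 5.63e-05, limma). In GFP- cells 1 h after neomycin, with the mock date, it stood at 0.833, 1.36 and 0.838 FPKM, and at 5 h, with the 3 h date, at 10.8, 26.6 and 16.1 FPKM. The high GFP- values were thus in the 6 GFP- libraries of Apr2012 and in no GFP- library of Mar2012.

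The list of lateral line and supporting cell genes held the most lower calls of the 32 lists. Like the other lists, it was written with earlier results of these data known, so its counts are a description without a test. Of 39 tested members 5 were lower (against 0.852% of all genes) and 2 were higher, and the median difference was -0.095, or -0.28 after scaling. Under scaling 7 were lower and none was higher: ISL1 (ENSDARG00000004023) and PROX1 (ENSDARG00000055158), transcription factors, were the 2 higher members as deposited, with 0.80 ± 0.24 and 0.77 ± 0.20, and were not called after scaling. In GFP+ cells 10 of the 39 fell and 3 rose, against 8.46% and 20.8% of all genes. In GFP- cells none was called, against 4.7% of all genes. Members near 1 FPKM in GFP- cells, such as negaly6, left little room for a GFP- fall to be called. The 5 lower members were negaly6, krt15, cbln20, fndc7rs3 and fndc7rs2. With 1 library left out 3 to 5 were lower, the fewest without GFP- 3 h replicate 3, and 0 to 2 were higher. negaly6, krt15 and cbln20 were called without any 1 of the 12 libraries, whereas fndc7rs3, fndc7rs2, ISL1 and PROX1 lost their call without 1, 9, 9 and 6 of them in turn.

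negaly6 (ENSDARG00000089123), a Ly6-type membrane protein of neuromasts, went from 582, 639 and 489 to 132, 128 and 114 FPKM in GFP+ cells and was at 0.536 to 1.38 FPKM in the 6 GFP- libraries. Its difference was -1.96 ± 0.29 (adjusted p = 0.000718, limma). With GFP- levels this near 1 FPKM, a date effect of equal fold would have cancelled only in part, as for mfsd2al2 and SOSTDC1 below. krt15 (ENSDARG00000036840), a keratin, went from 4364, 3026 and 4667 to 1277, 1303 and 1029 FPKM in GFP+ cells, with 65.1, 51.7 and 48.0 and then 38.6, 51.0 and 52.2 FPKM in GFP- cells, a difference of -1.51 ± 0.34 (adjusted p = 0.0124, limma). The GFP+ groups of both genes were far apart, whereas their GFP- groups overlapped. cbln20 (ENSDARG00000087476), of the secreted cerebellin family, had a difference of -1.23 ± 0.29 and went from 446, 618 and 716 to 218, 279 and 242 FPKM in GFP+ cells. fndc7rs3 (ENSDARG00000093150), related to fibronectin type III proteins, had one of -1.67 ± 0.40 and went from 1243, 1508 and 1418 to 717, 709 and 617 FPKM. In GFP- cells both were under 7 FPKM. The GFP+ change of cbln20 was -1.24 ± 0.20 and made up almost its whole difference, whereas for fndc7rs3 a GFP+ change of -1.03 ± 0.28 stood beside a GFP- change of 0.64 ± 0.28 that was not called. fndc7rs2 (ENSDARG00000092552), of the same family, had a difference of -1.19 ± 0.33 (adjusted p = 0.0347, limma).

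TSPAN1 (ENSDARG00000052027), a tetraspanin, had a difference of -1.07 ± 0.32 that just missed the threshold (adjusted p = 0.0518, limma) and passed it after scaling (adjusted p = 0.0342), as did the transcription factor SOX3 (ENSDARG00000053569), with -0.60 ± 0.19 as deposited (adjusted p = 0.0695, or 0.0243 after scaling). SOX2 (ENSDARG00000070913) and sox21a (ENSDARG00000031664), transcription factors of supporting cells, had differences of -0.19 ± 0.22 and 0.12 ± 0.32 and were not called (adjusted p = 0.678 and 0.879, limma). SOX2 stood at 84.0, 109 and 106 FPKM in GFP+ mock and 65.9, 90.03 and 75.3 FPKM in GFP+ 3 h libraries, which overlap.

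Of the other strongly lower genes, CAPN1, PTGER4, SRCIN1, mgp and neff2 lay above GFP- cells in mock and overlapped them at 3 h. mfsd2al2 (ENSDARG00000075375), of the major facilitator transporter superfamily, went from 27.0, 35.1 and 36.2 to 5.89, 5.27 and 4.07 FPKM in GFP+ cells and was under 1 FPKM in all GFP- libraries, a difference of -2.27 ± 0.36 (adjusted p = 0.00112, limma). CAPN1 (ENSDARG00000055338), a calcium-dependent protease, went from 18.9, 20.4 and 20.8 to 3.77, 3.03 and 4.42 FPKM in GFP+ cells, with 2.69, 3.87 and 5.22 and then 7.15, 3.11 and 4.25 FPKM in GFP- cells. The difference of CAPN1 was -2.37 ± 0.57 (adjusted p = 0.0183, limma). PTGER4 (ENSDARG00000059236), a prostaglandin E2 receptor, went from 6.04, 6.49 and 5.76 to 0.894, 1.87 and 1.03 FPKM in GFP+ cells, with 1.00, 1.03 and 0.844 and then 1.47, 1.01 and 1.5 FPKM in GFP- cells. SRCIN1 (ENSDARG00000059773), an adaptor that inhibits Src kinase, went from 12.2, 14.8 and 12.3 to 3.35, 4.84 and 3.55 FPKM in GFP+ cells, with 4.17, 3.62 and 3.76 and then 5.13, 4.63 and 5.05 FPKM in GFP- cells. PTGER4 and SRCIN1 had differences of -1.91 ± 0.23 and -1.82 ± 0.19 (adjusted p = 0.000215 and 0.000142, limma), and both kept their call under all 10 alternative settings and with any 1 of the 12 libraries left out.

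SOSTDC1 (ENSDARG00000056021), a secreted antagonist of Bmp and Wnt signals, went from 37.1, 51.3 and 41.9 to 12.3, 16.1 and 9.29 FPKM in GFP+ cells and was at 0.482 to 1.4 FPKM in GFP- cells. mgp (ENSDARG00000086189), which inhibits calcification of matrix, went from 22.1, 19.2 and 17.9 to 2.09, 5.94 and 2.56 FPKM in GFP+ cells, with 3.94, 3.17 and 3.30 and then 0.872, 2.99 and 2.09 FPKM in GFP- cells. Their differences were -1.55 ± 0.38 and -1.64 ± 0.37 (adjusted p = 0.0202 and 0.013, limma). YJEFN3 (ENSDARG00000061692) was an exception to the pattern of levels, since it was below the GFP- level already in mock. It went from 2.60, 4.11 and 4.42 to 0.739, 0.641 and 0.258 FPKM in GFP+ cells against 5.6, 6.72 and 9.70 and 6.84, 8.11 and 7.43 FPKM in GFP- cells, a difference of -1.65 ± 0.32 (adjusted p = 0.00483, limma). neff2 (ENSDARG00000057881) went from 6.65, 8.47 and 8.72 to 3.12, 2.67 and 3.22 FPKM in GFP+ cells, with 1.74, 2.51 and 2.90 and then 3.81, 3.07 and 3.54 FPKM in GFP- cells, a difference of -1.57 ± 0.35 (adjusted p = 0.0117, limma).

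None of the 29 tested hair cell genes was called in the difference by limma, as deposited or after scaling, and 4 had an unadjusted p under 0.05 (13.8%, against 21.3% of all genes). Their median difference was 0.11, against 0.13 over all genes. In GFP+ cells 5 members fell and 1 rose, against 8.46% and 20.8% of all genes, and in GFP- cells 3 fell, against 2.27%. The 1 that rose was ATOH1 (ENSDARG00000055294), the transcription factor that specifies hair cells. It went from 28.1, 28.5 and 31.3 to 45.7, 60.1 and 46.3 FPKM in GFP+ cells, with 3.45, 2.63 and 3.56 and then 2.38, 2.94 and 3.09 FPKM in GFP- cells. The GFP+ groups did not overlap and the GFP- groups did, but the difference of 0.91 ± 0.28 missed the threshold (adjusted p = 0.0578, limma), and more clearly so after scaling (adjusted p = 0.16). POU4F3 (ENSDARG00000006206), which maintains hair cells, had a difference of 0.15 ± 0.38 (adjusted p = 0.865, limma). With 1 library left out at most 1 hair cell gene was called.

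The signalling lists held 0 to 3 called members each, where 5.64% of all genes were higher and 0.852% lower. In the Notch list 3 of 32 tested members were higher (9.38%, against 5.64%). ADAM17 (ENSDARG00000093093), a membrane protease, went from 7.24, 7.92 and 8.58 to 15.0, 13.4 and 14.6 FPKM in GFP+ cells, with 14.4, 15.3 and 13.5 and then 14.9, 11.6 and 9.48 FPKM in GFP- cells, a difference of 1.05 ± 0.21 (adjusted p = 0.00539, limma). NUMB (ENSDARG00000027279), an inhibitor of Notch, had a difference of 0.75 ± 0.19 and lost its call after scaling. ADAM17 was called without any 1 of the 12 libraries, whereas NUMB lost its call without 7 of them in turn. ADAM17 was then the 1 higher member, without GFP+ mock replicate 1 or 2, GFP+ 3 h replicate 1 or 3, GFP- mock replicate 1 or 3 or GFP- 3 h replicate 1, and without GFP+ mock replicate 3 the list had 4. In the Fgf list 1 of 20 was lower (0.852% of all genes were) and none was higher. ETV4 (ENSDARG00000018303), a transcription factor induced by Fgf, went from 110.5, 144 and 98.5 to 40.2, 46.3 and 34.1 FPKM in GFP+ cells, with 24.5, 13.1 and 14.4 and then 11.9, 14.8 and 12.7 FPKM in GFP- cells. Its GFP- groups overlapped and its difference was -1.19 ± 0.26 (adjusted p = 0.00985, limma).

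In the Wnt/beta-catenin list 1 of 33 was higher and 2 were lower, against 5.64% and 0.852% of all genes. GSK3B (ENSDARG00000017803), a kinase of the beta-catenin destruction complex, had a difference of 0.66 ± 0.14. FZD8 (ENSDARG00000045444), a Wnt receptor, and WIF1 (ENSDARG00000005541), a secreted Wnt inhibitor, had differences of -0.85 ± 0.20 and -1.33 ± 0.39. FZD8 went from 32.6, 45.7 and 38.7 to 18.9, 24.7 and 19.5 FPKM and WIF1 from 64.7, 148 and 105 to 39.7, 52.2 and 38.7 FPKM in GFP+ cells. All 3 Wnt calls were kept after scaling. GSK3B and FZD8 were called without any 1 of the 12 libraries, and WIF1 lost its call without 9 of them in turn. Without GFP- mock replicate 1, 4 Wnt genes were lower. After scaling the Notch ligand dll4 (ENSDARG00000070425) and the Wnt receptor FZD7 (ENSDARG00000027589) were also lower, with -0.37 ± 0.14 and -0.52 ± 0.19 as deposited and -0.55 ± 0.13 and -0.70 ± 0.19 after it. No member was called in the lists for Jak/Stat3 (22 tested), NF-kB and inflammation (34), and Bmp and Tgf-beta (34), in the limma fit, with 4, 6 and 1 at an unadjusted p under 0.05. Of all genes 6.49% were called and 21.3% had an unadjusted p under 0.05 by limma.

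Among 40 tested S phase genes 3 were higher (7.5%, against 5.64%). Their median difference was 0.45, or 0.29 after scaling, and 26 of the 40 rose in GFP+ cells (20.8% of all genes did) against 1 in GFP- cells (2.44% of all genes). After scaling 16 of the 40 rose in GFP+ cells, against 13.5% of all genes, and 1 in GFP- cells. RPA1 (ENSDARG00000003938), a single-stranded DNA binding protein, went from 19.8, 19.9 and 16.3 to 32.0, 33.0 and 34.5 FPKM in GFP+ cells, with 47.4, 44.5 and 55.5 and then 48.3, 54.7 and 49.7 FPKM in GFP- cells, a difference of 0.75 ± 0.15 (adjusted p = 0.00557, limma). MCM4 (ENSDARG00000040041), a subunit of the replicative helicase, and DNMT1 (ENSDARG00000030756), the maintenance DNA methyltransferase, had differences of 0.76 ± 0.18 and 0.47 ± 0.13 and lost their call after scaling. Of 44 mitosis genes 1 was higher (5.64% of all genes were), the checkpoint gene BUB3 (ENSDARG00000075883) with 0.66 ± 0.18, and it lost its call after scaling. Among 20 G1 cyclins and cell cycle inhibitors 2 were higher as deposited (10%, against 5.64% of all genes). Both were also higher after scaling (2.06% of all genes were higher under both). The median difference of the list was -0.004, and after scaling 1 member was lower (1.66% of all genes were). RB1 (ENSDARG00000006782), which restrains S phase entry, went from 5.34, 6.32 and 5.51 to 14.2, 15.12 and 13.8 FPKM in GFP+ cells, a difference of 0.92 ± 0.15 (adjusted p = 0.00142, limma), and ccndx (ENSDARG00000019741), a D-type cyclin, had one of 1.25 ± 0.31. With 1 library left out 1 to 4 S phase genes were higher, and 0 to 2 under both scalings, with RPA1 alone left without GFP- mock replicate 3 or GFP- 3 h replicate 3. BUB3 lost its call without 8 of the 12 libraries in turn and ccndx without 3, whereas RPA1 and RB1 were called without any 1 of them.

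The remaining stress and metabolic lists had 0 to 3 calls each, beside 5.64% higher and 0.852% lower of all genes. The shares of higher members in the lists named here ran from 0% to 8.33%, around that of all genes. In the Nrf2, redox and metal list 2 of 30 were higher and 1 was lower, all under both scalings: the transferrin receptor tfr1b (ENSDARG00000077372) with 0.91 ± 0.20, the zinc exporter SLC30A1 (ENSDARG00000005463) with 1.02 ± 0.25 and the peroxidase PRDX1 (ENSDARG00000025350) with -0.59 ± 0.14. In the unfolded protein list 2 of 34 were higher, the lectin chaperone CANX (ENSDARG00000037488) with 0.63 ± 0.12 and the stress sensor atf6 (ENSDARG00000012656) with 0.68 ± 0.15, of which CANX was called under both scalings. In the sterol synthesis list 2 of 24 were higher, ACAT2 (ENSDARG00000007127) with 1.08 ± 0.23 under both scalings and IDI1 (ENSDARG00000019976) with 0.56 ± 0.13 as deposited. Of 42 immediate early and AP-1 genes 2 were higher, egr2a (ENSDARG00000044098) with 1.73 ± 0.48 and MYCN (ENSDARG00000006837) with 0.75 ± 0.17, both transcription factors, and neither was called after scaling. In the chemokine, migration and matrix list 2 of 42 were higher, among them the integrin chain ITGB6 (ENSDARG00000002494) with 0.99 ± 0.25, which lost its call after scaling. In the p53 and apoptosis list hdr (ENSDARG00000004392), a death receptor, was the 1 lower gene of 39 with -0.85 ± 0.24, and in the clock list HLF (ENSDARG00000061011), a bZIP transcription factor, the 1 higher of 34 with 1.00 ± 0.28, which lost its call after scaling. After scaling MYC (ENSDARG00000007241), cebpg (ENSDARG00000036073), RBL2 (ENSDARG00000045636) and OAZ2 (ENSDARG00000045929) of the immediate early, unfolded protein, G1 and polyamine lists were lower, with -0.54 ± 0.11, -0.54 ± 0.14, -0.46 ± 0.12 and -1.01 ± 0.25. None was called among 34 glycolysis and hypoxia genes and 16 glucocorticoid and steroid response genes by limma, with 3 and 1 at an unadjusted p under 0.05. Of the called genes named in these lists, tfr1b, PRDX1, CANX, atf6, ACAT2 and MYCN were called without any 1 of the 12 libraries. IDI1 lost its call without GFP- 3 h replicate 1, and SLC30A1, ITGB6, hdr, HLF and egr2a lost theirs without 3, 6, 8, 8 and 10 libraries in turn. Without GFP+ 3 h replicate 2, 6 immediate early genes were higher, 4 of them under both scalings.

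**Figure D4:**
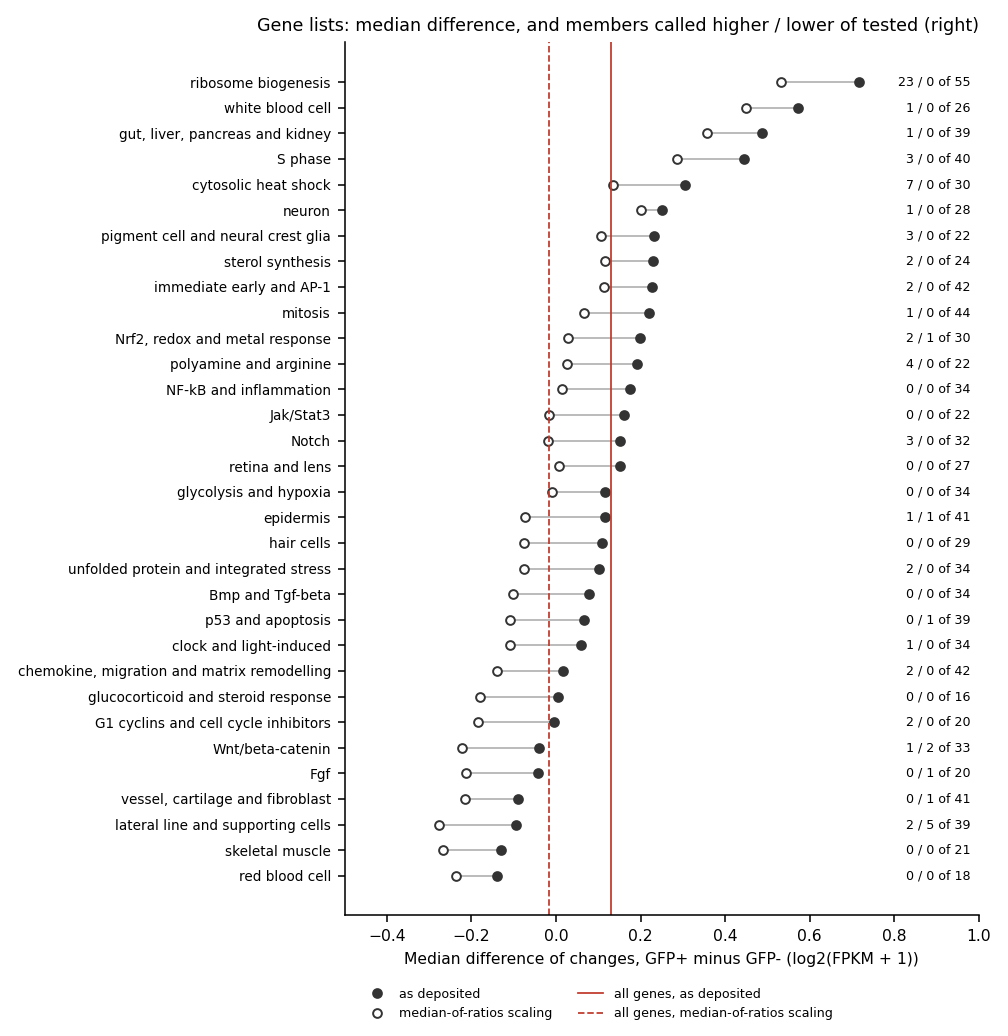
Median difference of changes for the tested members of 32 gene lists on the log2(FPKM + 1) scale, as deposited (filled) and after median-of-ratios scaling (open), with the median over all genes as red lines. The numbers at the right give members called higher and lower of those tested as deposited; ribosome biogenesis lies farthest right, with 23 of 55 higher.

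Some genes were called in GFP- cells only, which does not mean that GFP+ cells added nothing to their differences. SLC15A1 (ENSDARG00000044528), the peptide transporter of the gut, fell in GFP- cells from 7.62, 4.06 and 9.07 to 1.05, 1.88 and 0.454 FPKM, with 0.515, 0.562 and 0.727 and then 1.12, 0.431 and 0.879 FPKM in GFP+ cells. ccl38a.4 (ENSDARG00000041917), a chemokine, fell in GFP- cells from 17.4, 17.8 and 11.5 to 4.38, 7.49 and 2.63 FPKM and was listed at 0 in all 3 GFP+ mock libraries. Their differences of 2.05 ± 0.59 and 1.85 ± 0.51 were not called after scaling (adjusted p = 0.0716 and 0.0597). pvalb5 (ENSDARG00000032836), a parvalbumin that binds calcium, fell in GFP- cells from 252, 307 and 316 to 164, 141 and 122 FPKM, a difference of 1.58 ± 0.38 (adjusted p = 0.0181, limma). Its GFP+ values of 3.74, 3.70 and 4.52 FPKM in mock and 12.5, 5.09 and 3.66 FPKM at 3 h overlapped.

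A further 3 lower genes rose in GFP- cells without a GFP+ call. For klf17 every GFP+ 3 h library also lay below every GFP+ mock library, so GFP+ cells added to its difference. SLC10A4 (ENSDARG00000009131), a transporter of the bile acid carrier family, rose from 2.59, 4.58 and 4.52 to 15.4, 12.6 and 18.6 FPKM in GFP- cells and was at or below 1.09 FPKM in GFP+ cells, a difference of -1.26 ± 0.28 (adjusted p = 0.0112, limma). STEAP3 (ENSDARG00000075641), an iron reductase of red blood cell precursors, rose from 3.40, 4.73 and 3.43 to 8.89, 10.4 and 17.7 FPKM, a difference of -1.11 ± 0.28, with less than 0.5 FPKM in all GFP+ libraries. klf17 (ENSDARG00000038792), a Kruppel-like transcription factor, rose from 6.78, 7.19 and 4.86 to 12.2, 10.9 and 10.6 FPKM in GFP- cells, with 74.4, 87.0 and 69.9 and then 52.2, 67.6 and 54.7 FPKM in GFP+ cells, a difference of -1.17 ± 0.27 (adjusted p = 0.013, limma). Beside these genes, red blood cell markers rose in both populations, 13 of 18 tested in GFP+ and 12 in GFP- cells. These counts stand beside 20.8% and 2.44% of all genes. The markers had a median difference of -0.14 and none was called in the difference by limma (2 at an unadjusted p under 0.05). Their summed level was 16000 to 18600 FPKM in GFP- mock and 20300 to 31800 at 3 h, and 213 to 381 and 557 to 964 FPKM in GFP+ cells, with the globin hbbe3 listed at 0 in all 6 GFP+ libraries. The part of a changed cell mix in the GFP- differences was not tested.

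Markers of other cell types were read beside these results. In the pigment cell and glia list 3 of 22 were higher (13.6%, against 5.64%): SLC45A2 (ENSDARG00000002593), a transporter of pigment cells, with 1.55 ± 0.31, which was called under both scalings, and pmela (ENSDARG00000091298) and TRPM1 (ENSDARG00000011259) with 1.43 ± 0.40 and 0.82 ± 0.24, which fell in GFP- cells and lost their call after scaling. SLC45A2 alone was called without GFP+ mock replicate 1 or 3, GFP+ 3 h replicate 1 or 3, GFP- mock replicate 3 or GFP- 3 h replicate 3. One member each was higher among 26 white blood cell genes (srgn, ENSDARG00000077069, 1.18 ± 0.34), 28 neuron genes (tubb5, ENSDARG00000037997, 1.29 ± 0.33) and 39 gut, liver, pancreas and kidney genes (SLC15A1), against 5.64% of all genes. None of these 3 calls was kept after scaling, and each was lost without 6 to 9 of the 12 libraries in turn. The median differences of the white blood cell, neuron and gut lists were 0.57, 0.25 and 0.49, against 0.13 over all genes. srgn, serglycin, stood at 14.7, 12.5 and 10.3 and then 41.6, 23.4 and 25.95 FPKM in GFP+ cells, far under the 251, 181 and 157 and then 234, 154 and 201 FPKM of GFP- cells. The part of GFP- cells among the sorted GFP+ cells in these values was not tested gene by gene, and neither the white blood cell nor the neuron list had a member at 0 in every library of a GFP+ group. Summed white blood cell markers went from 82.8 to 119 FPKM in GFP+ mock to 174 to 203 at 3 h, against 3120 to 4930 and 2800 to 4130 in GFP- cells. Of 41 epidermis genes JUP (ENSDARG00000070787), a desmosome protein, was higher with 0.71 ± 0.20 as deposited only, and the hemidesmosome collagen col17a1b (ENSDARG00000079011) was lower with -1.21 ± 0.35 under both scalings. JUP lost its call without 7 of the 12 libraries in turn. col17a1b lost it without 9, and kept it without GFP+ 3 h replicate 2, GFP- mock replicate 1 or GFP- 3 h replicate 3. In the vessel, cartilage and fibroblast list she (ENSDARG00000087956), an SH2 domain protein, was the 1 lower of 41 with -0.86 ± 0.21, and none was called as deposited among 27 retina and lens and 21 skeletal muscle genes by limma (3 and 2 at an unadjusted p under 0.05). After scaling ldb3a (ENSDARG00000056322) of the muscle list was just lower, with -1.29 ± 0.36. Of 34 matched retina and lens markers, 4 lens crystallins (CRYAA, CRYBA1, CRYBA4 and crygm2d1) were listed at 0 in all 3 GFP+ 3 h libraries. In GFP+ cells 6 of the 27 tested members of that list rose and 0 fell, against 20.8% and 8.46% of all genes. Summed retina and lens markers went from 246 to 299 FPKM in GFP+ mock to 354 to 567 at 3 h. In GFP- cells the sums were 5230 to 6450 and 8600 to 10000. After an estimated GFP- share was subtracted from each GFP+ library, 1404 genes were called, 1100 higher and 304 lower, and all 32 genes named for size or class kept their call. Of the called genes of this paragraph only SLC15A1 is among those 32, and the calls of the others after subtraction are not given.

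The differences at 1 h and 5 h are given beside those at 3 h, and share the mock libraries with them. At 1 h, whose libraries carry the mock date, the differences of rln3a and tinagl1 were 2.74 ± 0.55 and 2.91 ± 0.57, and those of HSPA4 (ENSDARG00000004754), HSPD1 and txnb were 2.098 ± 0.20, 1.66 ± 0.23 and 2.09 ± 0.46, all past the threshold. In GFP+ cells at 1 h, rln3a was at 13.9, 6.13 and 9.34 FPKM and tinagl1 at 67.0, 41.3 and 92.7 FPKM. PTGER4 and SRCIN1, with -2.41 ± 0.23 and -1.45 ± 0.19, were lower at 1 h as well. apela and PTPRZ1 were not called at 1 h, with 0.28 ± 0.28 and 0.27 ± 0.28, and were called at 5 h, with 1.8 ± 0.28 and 1.26 ± 0.28. The 5 h libraries carry the date of the 3 h libraries. A later response of these genes and a date effect in GFP+ cells alone cannot be told apart. negaly6 and krt15 were called at 3 h only of the 3 times, with -0.85 ± 0.29 and -0.68 ± 0.34 at 1 h and -1.03 ± 0.29 and -0.85 ± 0.34 at 5 h, and differences between times were not tested. hsc70 had -0.73 ± 0.42 at 1 h and -4.10 ± 0.42 at 5 h, of which the second was called.

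**Figure D5:**
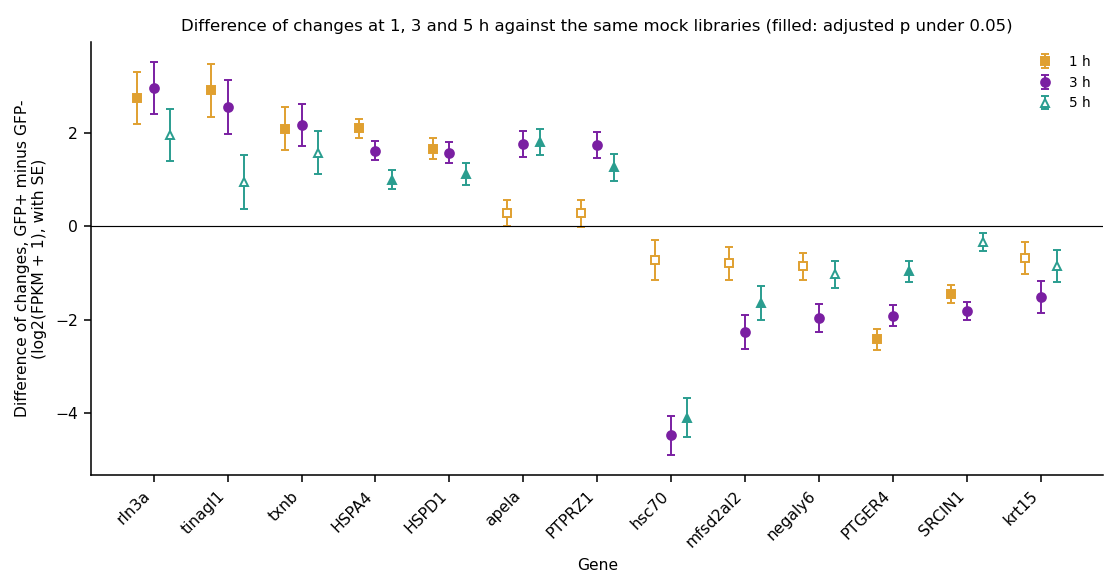
Difference of changes (GFP+ minus GFP-, log2(FPKM + 1), with SE) at 1, 3 and 5 h after neomycin for 13 genes, each against the same mock libraries; filled symbols passed an adjusted p of 0.05. rln3a and tinagl1 have filled symbols at 1 h and 3 h, and hsc70 has them at 3 h and 5 h.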

How the data were processed

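RNA-seq libraries of sorted GFP+ and GFP- cells were analysed from the authors' deposited table of FPKM values, 1 column for each of 24 libraries. Per the labels' protocols, poly-A libraries were made with a TruSeq kit. Per the submitters' processing notes, CASAVA 1.8.2, TopHat 1.4.1, Cufflinks 1.3 and the danRer7 build were used; the sources used here give neither an annotation release nor a strand setting. The table had 31199 rows and 31087 IDs, after 112 repeated rows were dropped, of which 20499 had a symbol in the table of gene names. FPKM keep no count depth, so relative depth was read from the values of genes under 0.15 FPKM, and no counting interval is given.

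Log2(FPKM + 1) values were fitted with limma 3.58.1 (R 4.3.3), with a trend, moderated variances and 1 mean for each of 8 groups, over the 21002 genes with at least 1 FPKM in 3 of the 12 libraries. Tests were two-sided with Benjamini-Hochberg adjustment. A pseudocount of 1 understates changes of low genes. On simulated data for this difference, with 21002 genes of which 200 were changed, 64% of changes of log2 1 and 95% of log2 2 were called. There were 11 calls among 20802 unchanged genes. The changes were placed in well expressed genes only, and the simulated noise was independent between genes and libraries. These rates therefore do not cover low genes, scaling or effects of a whole library.

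Named genes were, among called genes with a usual symbol, a group mean of at least 5 FPKM and separated library ranges, the 12 largest differences in each direction and the 3 largest in each class of calls within the populations, 32 in all. For each list up to 4 called members were added, with further members of interest chosen after their values were seen, as were the families of the last section. Some genes that these rules name are not reported here. The difference, the lists and the alternatives were chosen with earlier results of these data known. Alternatives were another pseudocount, other filters, median-of-ratios and quantile scaling, a fit of the 4 groups alone, a log2 difference of at least 1, a replicate block, subtraction of a GFP- share estimated from 109 markers, and leaving out each library. The main fit did not pair libraries by replicate number. Over 12 pairs with the same number, the correlation of deviations ran from -0.0161 to 0.126. Every pair of GFP+ and GFP- libraries of 1 date correlated best with its own number, so a weak pairing is possible. Promoter sequences and coordinates were not used here.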

Additional observations from a re-analysis of the deposited data

Results flagged for a closer look

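Every gene called in the report differed between the populations by the limma test of the difference itself. Within the filters for named genes, 6 were called in opposite directions in the 2 populations, and these are given here because both changes passed the threshold. hsc70 (ENSDARG00000012381) had a difference of -4.48, with a fall of GFP+ cells and a rise of GFP- cells, as described in the report. lgals3bp.3 (ENSDARG00000037805), a galectin-3 binding protein, went from 6.33, 7.03 and 8.49 to 4.78, 5.37 and 4.62 FPKM in GFP+ cells and from 0.691, 0.871 and 0.698 to 2.13, 3.02 and 1.45 FPKM in GFP- cells, a difference of -1.32 ± 0.22 (SE, adjusted p = 0.00193, limma). pcp4l1 (ENSDARG00000023181), related to the calmodulin-binding peptide PCP4, went from 2.82, 2.64 and 4.15 to 4.56, 4.24 and 6.47 FPKM in GFP+ cells and from 35.8, 41.1 and 42.2 to 28.8, 29.1 and 21.9 FPKM in GFP- cells, a difference of 1.1 ± 0.20 (adjusted p = 0.00391, limma).

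The other three are smaller. rapgef2a (ENSDARG00000061459), an activator of Rap GTPases, had a difference of 0.808, with 6.20, 7.92 and 8.25 and then 10.5, 8.73 and 9.64 FPKM in GFP+ cells and 31.6, 27.3 and 30.1 and then 21.9, 23.7 and 18.01 FPKM in GFP- cells. ORMDL1 (ENSDARG00000014333), a regulator of sphingolipid synthesis, had one of 0.794, and PSMB4 (ENSDARG00000054696), a proteasome subunit, one of 0.679. PSMB4 was not called after median-of-ratios scaling (adjusted p = 0.0735, limma), and the other 5 were. Groups hold 3 libraries, so no test for a single outlying library was made.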

How the results depend on the processing

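Median-of-ratios scaling gave 781 called genes, 433 higher and 348 lower, and quantile scaling gave 708, 406 and 302; 608 and 570 of these were among the 1363 in the same direction. Requiring a log2 difference of at least 1 left 316 genes, 232 higher and 84 lower, with 1033 in GFP+ and 179 in GFP- cells. Subtracting the GFP- share gave 304 lower genes in place of 179, and a pseudocount of 0.1 gave 601 calls in place of 988 in GFP- cells. The cause of these moves was not tested, other than that a minimum difference keeps fewer genes by construction. With 1 library left out, 777 to 1253 genes were called, 670 to 1056 higher and 107 to 208 lower, with 4857 to 6190 in GFP+ and 281 to 1047 in GFP- cells. Under both scalings, an alternative chosen after seeing the data, 306 to 633 were called, 206 to 452 higher and 100 to 207 lower. The 608 moved by over 1.5 times without GFP+ 3 h replicate 1 or 3, GFP- mock replicate 3, or GFP- 3 h replicate 1 or 3.

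Of the 32 genes named by size or class, none reversed under any alternative. A pseudocount of 0.1 ended 7 calls (ccl38a.4, HSPA8, mfsd2al2, mgp, SOSTDC1, SLC10A4 and STEAP3). Quantile scaling ended 5 (ODC1, SLC15A1, fndc7rs3, krt15 and STEAP3), the fit of the 4 groups alone 4 (ODC1, mgp, STEAP3 and pvalb5), and no filter on low values 1 (SLC15A1). A block shared by the GFP+ and GFP- libraries of 1 treatment, hour and number ended 3 (ccl38a.4, fndc7rs3 and STEAP3). Leaving out 1 library ended calls of ODC1, SLC15A1, ccl38a.4, HSPA8, CAPN1, fndc7rs3, SOSTDC1, STEAP3 and pvalb5. The other 23 were called with any 1 of the 12 libraries left out. The FPKM minimum of 5 left out SLC15A1.

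With the replicate number as a block, 1541 genes were called, 1321 higher and 220 lower. With a block shared by the GFP+ and GFP- libraries of 1 treatment, hour and number, the counts were 1219, 1035 and 184. Of the 12 pairs, 9 correlated best with their own number, among them all 6 of GFP+ and GFP- libraries of 1 date, at 0.0439 to 0.126. Whether libraries of 1 date and number came from the same larvae was not tested, so the blocks are given as alternatives only. Depth in counts is unknown, so differences of genes near 1 FPKM are the least certain.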

Other observations

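Gene families read by symbol, chosen after their values were seen and given without a test, add to the ribosome biogenesis and chaperone genes. Of 41 tested subunits of the 20S and 19S proteasome, which degrades ubiquitinated proteins, 25 were higher (61%, against 5.64% of all genes), none was lower, and 15 were higher under both scalings (2.06% of all genes were). With 1 library left out 22 to 29 subunits were higher, or 8 to 20 under both scalings. The lowest count of 8 came without GFP- mock replicate 3 or GFP- 3 h replicate 1. Their median change was 0.54 in GFP+ and -0.17 in GFP- cells. PSMD11 (ENSDARG00000005134), of the regulatory particle, had group means of 6.73 and 20.1 FPKM in GFP+ mock and 3 h cells and of 16.8 and 19.6 FPKM in GFP- cells, a difference of 1.23 ± 0.14 (SE, adjusted p = 0.000215, limma). Of 16 cytosolic aminoacyl-tRNA synthetases, which charge tRNAs, 14 were higher (87.5%, against 5.64%), 13 of them under both scalings, with a median difference of 0.96. In that family 15 rose in GFP+ cells (20.8% of all genes did) and 6 in GFP- cells (2.44% of all genes). With 1 library left out 13 to 14 were higher, or 10 to 13 under both scalings. MARS1 (ENSDARG00000034396), the methionyl-tRNA synthetase, had means of 6.39 and 26.5 FPKM in GFP+ and of 12.8 and 19.5 FPKM in GFP- cells, a difference of 1.34 ± 0.18 (adjusted p = 0.000386, limma).

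All 4 tested ABC-F and ABCE ATPases were higher under both scalings, as were 3 of 7 subunits of the TRiC chaperonin, which folds actin and tubulin, and 5 of 18 nucleoporins; as deposited the counts were 5 of 7 (71.4%) and 10 of 18 (55.6%). These stand against 2.06% of all genes under both scalings and 5.64% as deposited. With 1 library left out 4 to 6 TRiC subunits and 7 to 11 nucleoporins were higher, or 2 to 4 and 3 to 5 under both scalings. Of 65 mitochondrial ribosomal proteins 11 were higher as deposited (16.9%) and 2 under both scalings, and of 38 splicing factors of the SRSF, SF3 and HNRNP families 15 (39.5%) and 6. Without GFP- 3 h replicate 3 the mitochondrial count was 6 and that of splicing factors 9, and without GFP- 3 h replicate 1 they were 7 and 9. The splicing count was also 9 without GFP+ mock replicate 1 or GFP- mock replicate 3. The structural proteins of cytosolic ribosomes had no calls of this kind. Of 69 tested, 65 fell in GFP+ and 8 in GFP- cells, with medians of -0.51 and -0.32. None was called in the difference by limma, as deposited or after scaling. As deposited 1 had an unadjusted p under 0.05 by limma, against 21.3% of all genes. After scaling 26 of the 69 did, against 3948 of all 21002 genes. Their median difference was -0.19 as deposited and -0.38 after scaling, against 0.13 and -0.016 over all genes. Over all genes 8.46% fell and 20.8% rose in GFP+ cells, and 2.27% fell in GFP- cells. Of 33 NADH dehydrogenase subunits of mitochondria, 11 fell and 5 rose in GFP+ cells, 6 fell in GFP- cells, and none was called in the difference by limma (5 at an unadjusted p under 0.05). Reads of near-identical copies within these families were assigned by the authors' software, so values of single members are uncertain.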
